A study of Mus musculus with 6 samples.

Results

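Transcription factors of the HNF4, FOXA, GATA and CDX families were examined in mouse pancreatic tumour organoids with and without a hairpin against Scrib. The 8 genes were taken by symbol from a fixed list, namely Hnf4a, Hnf4g, Foxa1, Foxa2, Foxa3, Gata4, Gata6 and Cdx2, out of 54453 genes in the tables. All 8 were found, and all 8 passed the low-count filter that left 14169 genes for testing. The Scrib group held 3 libraries with short hairpin RNA number 5523 against Scrib, 1 each from the lines T113, T118 and T91. The Renilla group held 1 library from each of the same lines with a hairpin against Renilla luciferase, which mouse cells lack. Every library came from PDAC organoids grown in Matrigel and labelled KPF/FC for genotype, a code the sources used here do not spell out. The lines T113 and T118 were labelled male and were at passages 13 and 11, and T91 was labelled female and was at passage 10, so that line, sex and passage cannot be told apart. With 1 library for each line and hairpin, differences between hairpins within 1 line are values without a test, and the p-values measure only the spread among these 6 libraries. A single Scrib hairpin was used, and the labels describe its delivery by virus while the series text speaks of transfected plasmids.

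HNF4A and its paralogue HNF4G are nuclear receptors that bind DNA as dimers and switch on genes of liver and gut epithelium. FOXA proteins are forkhead factors that bind sites in closed chromatin early in endoderm development, GATA factors are zinc finger proteins needed for foregut and pancreas formation, and CDX2 is the homeobox factor that sets intestinal identity. In pancreatic cancer, HNF4A and GATA6 are known as factors of the classical, gland-like subtype, and CDX2 is a marker of intestinal differentiation.

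Promoter windows were taken from RefSeq on GRCm38.p6, as the 250 bases before a transcript start. Windows of 5 of the 8 genes were examined (8 windows in all), and none of Hnf4g, Gata4 or Gata6. Because members of these families are known to bind near each other's genes, 4 windows are shown in which a short recognition word of a member family occurs. Words were searched on both strands, and capitals mark a match. The word used for the HNF4 family was CAAAGTC. For FOXA proteins the forkhead word TGTTTAC was searched. A second forkhead form was also searched, namely TGTTTGC. The word used for GATA proteins was AGATAA. For the CDX family it was the homeobox word TTTATGG. No matches overlapped in the 8 windows. Each window is written 5′ to 3′ on the strand of its gene, so a capital GTAAACA is the first forkhead word read from the other strand. The Foxa1 window is chr12:57546112-57546361 (minus strand), the Cdx2 window chr5:147307250-147307499 (minus strand), the window of the upstream start of Hnf4a chr2:163506607-163506856 (plus strand) and the Foxa2 window chr2:148045465-148045714 (minus strand).
Foxa1: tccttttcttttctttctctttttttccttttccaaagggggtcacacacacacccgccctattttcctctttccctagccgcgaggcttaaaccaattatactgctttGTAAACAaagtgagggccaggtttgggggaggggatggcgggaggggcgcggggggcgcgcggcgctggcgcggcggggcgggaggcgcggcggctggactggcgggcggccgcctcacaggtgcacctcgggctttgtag
Cdx2: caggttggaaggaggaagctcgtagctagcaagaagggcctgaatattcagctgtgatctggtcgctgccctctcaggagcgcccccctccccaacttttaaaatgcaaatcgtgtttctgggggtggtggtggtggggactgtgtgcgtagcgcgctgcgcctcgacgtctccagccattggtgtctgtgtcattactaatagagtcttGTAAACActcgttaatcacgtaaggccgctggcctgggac
Hnf4a, upstream start: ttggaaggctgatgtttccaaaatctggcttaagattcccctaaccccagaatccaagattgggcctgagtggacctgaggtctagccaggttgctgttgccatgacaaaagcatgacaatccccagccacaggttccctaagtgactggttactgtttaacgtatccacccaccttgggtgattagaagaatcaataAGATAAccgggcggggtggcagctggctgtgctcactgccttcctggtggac
Foxa2: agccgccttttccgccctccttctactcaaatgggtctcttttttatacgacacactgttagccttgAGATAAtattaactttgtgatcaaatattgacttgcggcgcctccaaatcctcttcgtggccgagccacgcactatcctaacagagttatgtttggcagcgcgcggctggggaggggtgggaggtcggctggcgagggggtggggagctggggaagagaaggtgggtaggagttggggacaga

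The FOXA word TGTTTAC stood in the Foxa1 and Cdx2 windows, and 3.17% of 32851 windows of this length in the RefSeq table hold it. The GATA word stood in the upstream Hnf4a window and in the Foxa2 window shown, 1 of 3 for that gene, and 9.99% of all windows hold the GATA word. The Foxa1 window and the Foxa2 window shown lie inside the annotated genes. The Foxa2 window before the outermost start of that gene held none of the words. No window examined held the words for HNF4 (3.84% of all windows) or CDX (2.43%), or the FOXA word TGTTTGC (4.30%). The windows of Foxa3 and of the downstream Hnf4a start held none of the words. These matches describe letters only, and binding was not measured. Counts were deposited per gene, so use of the upstream and downstream Hnf4a starts could not be separated.

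Depth was 24035559 to 29817060 summed estimated counts per library with the Scrib hairpin and 29910162 to 36235773 with the Renilla hairpin. At this depth 1 count was worth 0.0269 to 0.0421 CPM (counts scaled to library size with TMM factors, the unit used below unless per kb is stated). Scrib itself stood at 35.0, 30.0 and 29.7 CPM with the Scrib hairpin in T113, T118 and T91, against 157, 158 and 177 CPM with the Renilla hairpin, so every knockdown library lay below every control library. The epithelial identity of the cultures was checked on 9 markers, which all passed the filter and summed to 7800 to 10700 CPM (sums of lists are without TMM scaling) with the Scrib hairpin and 8500 to 13100 with the Renilla hairpin. Markers of other cells were scarce, with sums of at most 13.5 CPM for 8 hepatocyte, 10.1 for 8 endocrine, 0.957 for 9 acinar, 7.66 for 8 fibroblast, 1.64 for 6 endothelial and 5.95 for 7 immune genes in any library. Of the hepatocyte markers, Serpina1a and Ahsg were at 0 in every library, Alb was at 0 in all but T91 with the Renilla hairpin (0.0335 CPM), and Ttr was the 1 past the filter. The fibroblast markers held 1 gene at 0 throughout (Lum), and the T91 library with the Scrib hairpin had the highest fibroblast sum. In bulk libraries, fewer cells of a type and less RNA per cell cannot be told apart.

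The most abundant factors per length were Cdx2, Hnf4a and Gata4 in all 3 lines. Levels were compared between genes as CPM per kb of merged exon length. Cdx2 averaged 53.2 ± 8.32 CPM per kb, Hnf4a 48.5 ± 10.9 and Gata4 32.9 ± 6.93 (SD over 6 libraries of both hairpins). Foxa2 followed with 17.1 ± 5.18 and Foxa1 with 13.2 ± 8.31 CPM per kb. Foxa3 stood at 4.01 ± 2.87, Hnf4g at 2.99 ± 1.89 and Gata6 at 0.313 ± 0.439 CPM per kb (0.539 by the length of its longest transcript, still the lowest). Among 12257 protein-coding genes tested, the percentile of the mean level per kb was 92.5 for Cdx2, 91.6 for Hnf4a and 87 for Gata4. It was 74.2 for Foxa2 and 67.9 for Foxa1, and 36.7 for Foxa3, 30.6 for Hnf4g and 7.33 for Gata6. Gata4 ranked below Cdx2 and Hnf4a and above the rest in all 6 libraries, whereas several neighbours in the order changed places. Cdx2 was above Hnf4a in 5 of 6 libraries. With the length of the longest transcript in place of merged exons it was above in 3 of 6, and Hnf4a led with 53.6 CPM per kb against 53.2 for Cdx2, so these levels did not differ beyond their spread. Foxa2 was above Foxa1 in 4 of 6 libraries, the exceptions being both T113 libraries, and in 5 of 6 by the longest transcript. Foxa3 was above Hnf4g in 4 of 6, the exceptions being both T118 libraries. Gata6 was last except in the T91 library with the Scrib hairpin, where it stood at 0.879 CPM per kb and Hnf4g at 0.768.

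**Figure D1:**
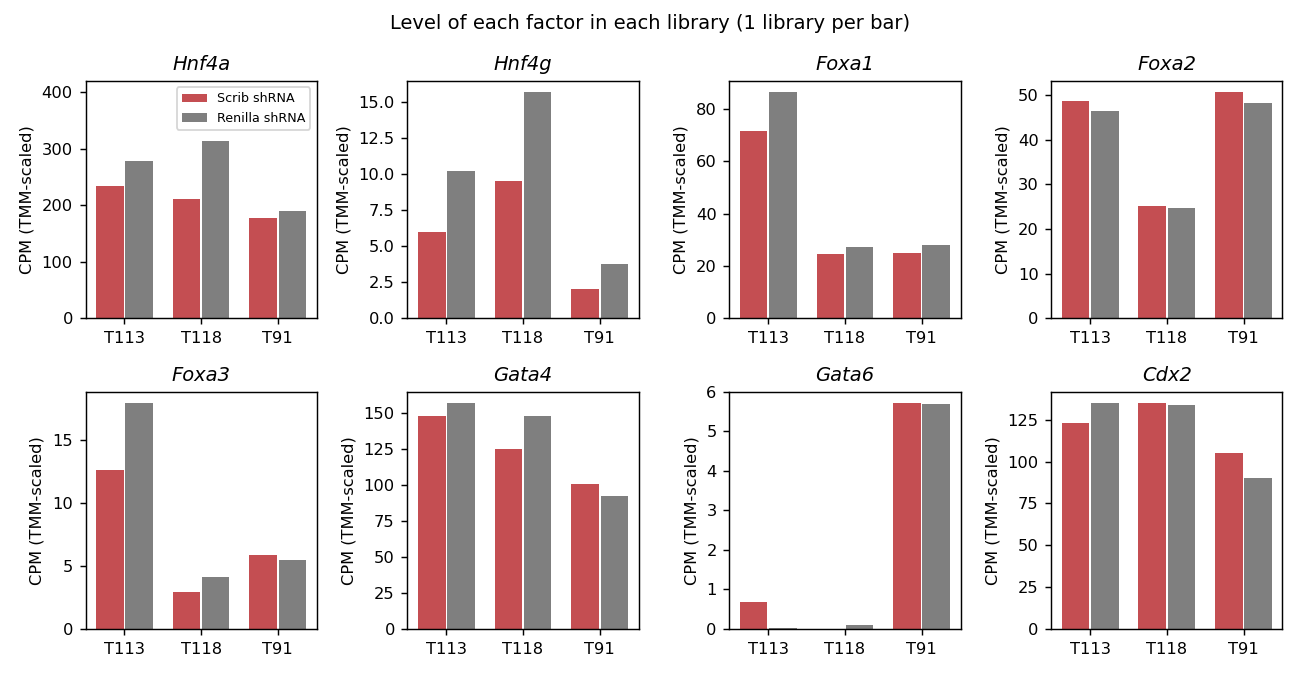
Level of each of the 8 factors as TMM-scaled CPM (y axis, from 0, scale differs between panels) by line (x axis), with 1 bar per library, Scrib hairpin in red left of Renilla hairpin in grey. Foxa1 and Foxa3 are highest in T113, Foxa2 is lowest in T118, Hnf4g is lowest and Gata6 highest in T91.

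Most of these factors differed between the lines: Foxa1 and Foxa3 were highest in T113, Foxa2 was lowest in T118, and Hnf4g was lowest and Gata6 highest in T91. In edgeR's quasi-likelihood F-test of both line terms, 6 of the 8 factors passed an adjusted p of 0.05, where 14% of all genes tested passed, and the exceptions were Hnf4a and Cdx2. That count includes Gata6, which passed the low-count filter through both T91 libraries and the T113 library with the Scrib hairpin. Without 1 library the count was 5 to 7: Gata4 was lost without either T113 library, and Gata6 without any of the T91 and T118 libraries. Differences below are log2 fold changes ± standard error unless stated otherwise. Among pairs of lines, 4 factors were higher in T113 than in T91 (6.06% of all genes differed). Between T118 and T91, 1 factor was higher and 2 were lower in T118 (11% of all genes differed). Between T113 and T118, 3 were higher in T113, all of them FOXA genes (10.2% of all genes differed).

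Foxa1, a forkhead factor expressed through gut and pancreas development, was higher in T113 than in either other line. It stood at 71.5 and 86.4 CPM in T113 (Scrib, then Renilla hairpin), at 24.6 and 27.2 CPM in T118 and at 25.1 and 28.1 CPM in T91. Both T113 libraries lay above all 4 others. The ratio of T113 to T91 was 2.85 with the Scrib hairpin and 3.08 with the Renilla hairpin, and the fitted difference was 1.57 ± 0.12 (95% interval 1.29 to 1.85, adjusted p = 0.00117 by edgeR). Against T118 T113 was higher by 1.61 ± 0.12 (adjusted p = 0.00114 by edgeR). Between T118 and T91 the difference was -0.04 (95% interval -0.32 to 0.24). Foxa1 (ENSMUSG00000035451) is a minus-strand gene at chr12:57540628-57546916, by the GENCODE annotation of GRCm38 used for all gene positions here.

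Foxa3, the FOXA factor best known from liver, followed Foxa1 in T113 but differed more between T118 and T91. Its level was 12.6 and 17.9 CPM in T113 (Scrib, then Renilla hairpin), 2.96 and 4.13 CPM in T118 and 5.89 and 5.50 CPM in T91. No library of one line overlapped with those of another. T113 exceeded T118 by 2.10 ± 0.23 on the log2 scale, a 4.29-fold difference (adjusted p = 0.00456 by edgeR). T113 exceeded T91 by 1.4 ± 0.23 (adjusted p = 0.0184 by edgeR), a call that was lost without either T113 library (adjusted p = 0.0677 without the Scrib one and 0.217 without the Renilla one). T118 was at -0.70 relative to T91, which did not pass (adjusted p = 0.116 by edgeR) but did without the T91 Renilla library (adjusted p = 0.0267). Foxa3 (ENSMUSG00000040891) is a minus-strand gene at chr7:19013284-19023538.

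Foxa2, a factor required for endoderm and for pancreatic islet genes, showed another pattern, since T113 and T91 overlapped and T118 was lower. Its values were 48.7 and 46.4 CPM in T113, 25.1 and 24.6 CPM in T118 and 50.6 and 48.1 CPM in T91 (Scrib, then Renilla hairpin in each line). In every line the libraries of both hairpins lay close together, and both T118 values lay below the other 4. T118 was lower than T91 at -0.99 ± 0.11 on the log2 scale, a 1.99-fold difference (adjusted p = 0.00373 by edgeR). T113 was higher than T118 by 0.94 ± 0.11 (adjusted p = 0.00609 by edgeR), and this missed the threshold without either T113 library (adjusted p = 0.0765 without the Scrib one and 0.0795 without the Renilla one). For T113 against T91 the difference was -0.05 (95% interval -0.32 to 0.21). Foxa2 (ENSMUSG00000037025) is a minus-strand gene at chr2:148042877-148046969.

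Because of these separate patterns the makeup of the FOXA family differed by line, a ratio within a library that does not depend on library scaling. Foxa1 made up 44.6% and 47.8% of the FOXA sum per kb in T113 (Scrib, then Renilla hairpin), 38% and 39.7% in T118 and 23.7% and 26.8% in T91. Foxa2 made up 42.6% and 36% in T113, 54.5% and 50.4% in T118 and 67.2% and 64.6% in T91. The share of Foxa3 was between 7.50% and 16.2% in all libraries. Per kb of merged exon, Foxa1 thus had the largest share in T113, and Foxa2 in T118 and T91. With the longest transcript as length, the T113 Scrib library had 22.4 CPM per kb of Foxa1 against 22.9 of Foxa2, so in that library the lead depends on the length used, while the T113 Renilla library kept Foxa1 ahead (27.1 against 21.8). The summed FOXA level was 48.2 and 54.4 CPM per kb in T113, 19.4 and 20.6 in T118 and 31.8 and 31.4 in T91.

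**Figure D2:**
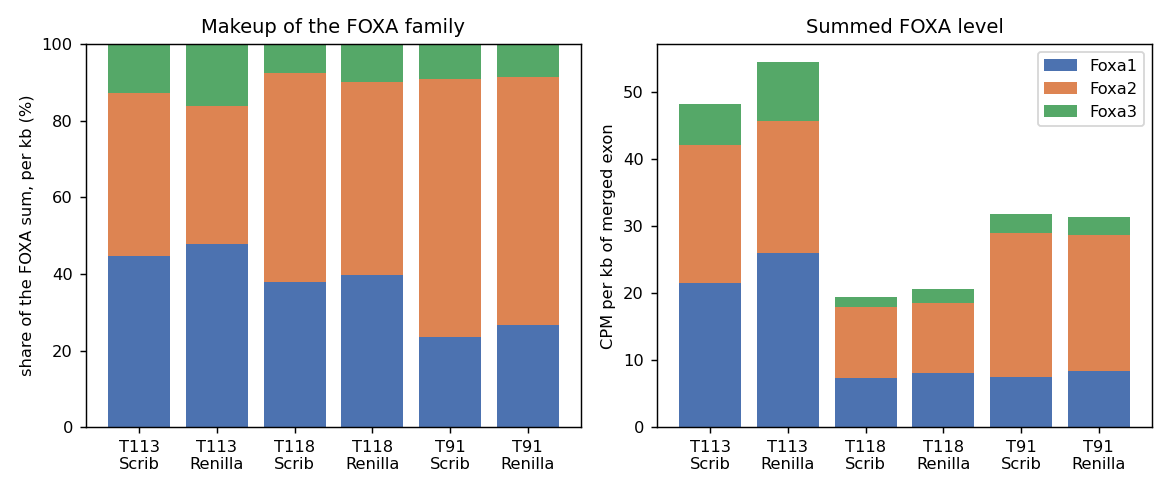
Left, share of Foxa1, Foxa2 and Foxa3 in the FOXA sum per kb (%, y axis) in each of 6 libraries. Right, the summed level in CPM per kb of merged exon, with lines T113, T118 and T91 from left to right and the Scrib library left of the Renilla library. Foxa1 makes up 44.6% and 47.8% in T113 and 23.7% and 26.8% in T91, and the summed level is lowest in T118.

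Hnf4g and Hnf4a were both lowest in T91, but the difference passed the test for Hnf4g only. Hnf4g, the paralogue that acts beside Hnf4a in intestinal epithelium, stood at 6.02 and 10.2 CPM in T113 (Scrib, then Renilla hairpin), 9.55 and 15.7 CPM in T118 and 2.02 and 3.76 CPM in T91. Both T91 libraries lay below all others. T118 was higher than T91 by 2.14 ± 0.20 on the log2 scale, a 4.42-fold difference (adjusted p = 0.00178 by edgeR). T113 was higher than T91 by 1.5 ± 0.20 (adjusted p = 0.00813 by edgeR), which was lost without the T113 library of either hairpin (adjusted p = 0.0557 without the Scrib one and 0.0774 without the Renilla one) and in the fit with no hairpin term (adjusted p = 0.102). T113 was at -0.64 relative to T118, short of the threshold (adjusted p = 0.08 by edgeR), and passed without either T91 library (adjusted p = 0.0324 without the Scrib one and 0.036 without the Renilla one). Hnf4g (ENSMUSG00000017688) is a plus-strand gene at chr3:3508030-3658052.

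Hnf4a was measured at 235 and 278 CPM in T113, 211 and 313 CPM in T118 and 178 and 189 CPM in T91 (Scrib, then Renilla hairpin in each line). Both T91 libraries were again the lowest, with a smaller gap than for Hnf4g. T113 was at 0.48 ± 0.14 relative to T91 (adjusted p = 0.135 by edgeR) and T118 at 0.49 ± 0.14 (adjusted p = 0.0847 by edgeR). Both passed with no low-count filter and without the T91 Scrib library (adjusted p = 0.018 and 0.0111), the first also without either T118 library (0.0326 and 0.0278) and the second without the T118 Scrib library (0.0187). Over both line terms the adjusted p was 0.104 by edgeR and 0.0904 by limma-voom, while DESeq2's likelihood ratio test gave an adjusted p of 0.0241. Hnf4a made up 95.5% and 93.7% of the HNF4 pair per kb in T113, 92.3% and 91.6% in T118 and 98.0% and 96.5% in T91, so that Hnf4g was the minor transcript in every library. Hnf4a (ENSMUSG00000017950) is a plus-strand gene at chr2:163506808-163572910, and the antisense gene Hnf4aos within it shares no exon with it and had at most 6 counts in a library.

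The GATA pair was nearly all Gata4, a zinc finger factor of stomach, proximal intestine and early pancreas. Gata4 stood at 148 and 157 CPM in T113 (Scrib, then Renilla hairpin), 125 and 148 CPM in T118 and 101 and 92.7 CPM in T91. Both T91 libraries lay below the other 4. T113 was higher than T91 by 0.66 ± 0.13 on the log2 scale (adjusted p = 0.0363 by edgeR), and without either T113 library the call was lost (adjusted p = 0.348 without the Scrib one and 0.361 without the Renilla one). T118 against T91 was at 0.49 ± 0.13 (adjusted p = 0.0618 by edgeR). It passed by DESeq2 (adjusted p = 0.0123) and in edgeR with no low-count filter (0.0227) or no hairpin term (0.0461). It did not by limma-voom (0.0566), or in edgeR with DESeq2 size factors (0.0567) or an average CPM of at least 5 (0.0771). The Gata4 difference was 0.65 without the T91 Scrib library and 0.35 without the T91 Renilla library. It was 0.64 without the T118 Scrib library and 0.37 without the T118 Renilla library. Its share of the GATA pair per kb was 96.7% and 96.4% in T91 and at least 99.7% in the libraries of T113 and T118. Gata4 (ENSMUSG00000021944) is a minus-strand gene at chr14:63198922-63271692.

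Gata6, a GATA factor whose loss is known to mark less differentiated pancreatic cancers, was detected well in T91 alone. Its rounded counts were 21 and 1 in T113 (Scrib, then Renilla hairpin), 0 and 3 in T118 and 136 and 170 in T91, which is 0.683 and 0.0269 CPM, 0 and 0.102 CPM, and 5.72 and 5.70 CPM. The T91 libraries stood above all others, and the limit that a count of 0 allows (3 counts) was 0.110 CPM in the T118 library with the Scrib hairpin. Summed over both hairpins, T91 over T118 had 306 counts against 3, a depth-scaled ratio of 108 (exact 95% interval 36.5 to 525, counting error only). For T91 over T113 the 306 counts stood against 22, a ratio of 17.6 (exact 95% interval 11.4 to 28.5). In edgeR's test over both line terms the adjusted p was 0.0299, T118 against T91 passed (adjusted p = 0.0303) and T113 against T91 did not (adjusted p = 0.0861), although it passed in limma-voom (adjusted p = 0.0393) and without the T113 Scrib library (adjusted p = 0.00466). DESeq2's likelihood ratio test over both line terms did not call Gata6 (adjusted p of 0.0869), nor did edgeR with no low-count filter. The call of T118 against T91 was lost without any of the 4 libraries of these lines (adjusted p from 0.135 to 0.348) and with no low-count filter (adjusted p = 0.236). Gata6 (ENSMUSG00000005836) is a plus-strand gene at chr18:11052064-11085635. The opposite-strand gene 1010001N08Rik overlaps its exons by 93 bases and had 3 and 2 counts in T91 and 0 in the other libraries.

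Cdx2 varied least among the 8 over the 6 libraries, with a standard deviation of 0.24 on the log2 CPM scale. It was at 123 and 135 CPM in T113, 135 and 134 CPM in T118 and 105 and 90.3 CPM in T91 (Scrib, then Renilla hairpin in each line). Both T91 libraries were the lowest here too. T113 was at 0.41 ± 0.13 relative to T91 (adjusted p = 0.151 by edgeR) and T118 at 0.46 ± 0.13 (adjusted p = 0.0734 by edgeR). The second passed by DESeq2 (adjusted p = 0.021) and in edgeR with no low-count filter (0.0345), but not by limma-voom (0.0678). The first passed in none of these (0.0917, 0.0896 and 0.137). The differences were 0.56 and 0.62 without the T91 Scrib library, and 0.27 and 0.32 without the T91 Renilla library. As for Hnf4a, DESeq2's likelihood ratio test called the line difference (adjusted p of 0.0317) and edgeR did not (adjusted p of 0.1). Cdx2 (ENSMUSG00000029646) is a minus-strand gene at chr5:147300805-147307270.

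The next comparison asked whether depletion of the polarity protein Scrib moved these factors within a line. None of the 8 had an adjusted p under 0.05 in edgeR (Benjamini-Hochberg over all genes), where 0.00706% of the genes tested did (Scrib alone). DESeq2 and limma-voom called 0 of the 8 as well, and 63 and 8 genes in all. At an unadjusted p under 0.05 edgeR had 2 of the 8, Hnf4g and Hnf4a, both lower with the Scrib hairpin, against 5.06% of all genes lower at that p. The fitted log2 fold change was below 0 for 5 factors and above 0 for 3, with a median of -0.14, beside a median of -0.01 over all genes tested, of which 51.8% were below 0.

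Hnf4g had the largest difference among the 7 factors with more than 3 counts in every library, and it was similar in size in each line. With the Scrib hairpin it stood at 59.0% of the Renilla level in T113, 61.0% in T118 and 53.8% in T91. On the log2 scale these ratios were -0.76, -0.71 and -0.90, from 185, 261 and 48 counts with the Scrib hairpin against 379, 459 and 112 with the Renilla hairpin. The fitted difference was -0.78 ± 0.15 (95% interval -1.15 to -0.41). Its unadjusted p of 0.00188 was the 37th smallest of 14169 in edgeR, and the adjusted p was 0.554 by edgeR, 0.115 by DESeq2 and 0.471 by limma-voom. The group means were 5.86 ± 3.77 CPM with the Scrib hairpin and 9.88 ± 5.96 CPM with the Renilla hairpin (SD, n = 3 each), and these groups overlapped because of the differences between lines.

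Hnf4a was also lower with the Scrib hairpin in every line, by an amount that varied. It stood at 84.7% of the Renilla level in T113, 67.5% in T118 and 93.7% in T91. The fitted value of -0.30 (95% interval -0.58 to -0.02) had an unadjusted p of 0.0397 and an adjusted p of 0.748 by edgeR. Since Hnf4g was lower by more, its share of the HNF4 pair per kb was 4.49% with the Scrib hairpin and 6.32% with the Renilla hairpin in T113, 7.66% and 8.42% in T118, and 2.04% and 3.51% in T91.

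None of the FOXA factors passed the hairpin test, and their intervals differed in width. Foxa1 was at 82.8%, 90.3% and 89.3% of the Renilla level in T113, T118 and T91, with a fitted log2 fold change of -0.20 (95% interval -0.42 to 0.03, adjusted p = 0.772 by edgeR). Foxa2 was at 105%, 102% and 105%, with a fitted value of 0.06 (95% interval -0.16 to 0.28), so a change larger than these bounds was outside the 95% interval in either direction. Foxa3 was at 70.0% in T113, 71.8% in T118 and 107% in T91 (fitted -0.30, 95% interval -0.75 to 0.15, and -0.50 without T91, adjusted p = 0.229 by edgeR). Gata4 had 93.9%, 84.3% and 108% of the Renilla level in T113, T118 and T91 (fitted -0.07, 95% interval -0.33 to 0.18), and Cdx2 had 90.9%, 101% and 116% (fitted 0.03, 95% interval -0.22 to 0.28). For Foxa3, Gata4 and Cdx2 the hairpin libraries were thus not on the same side in every line.

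Gata6 had 21 counts with the Scrib hairpin against 1 with the Renilla hairpin in T113, a depth-scaled ratio of 25.4 with an exact 95% interval of 4.08 to 1050, which covers counting error only. In T91 its level was the same to 2 digits with both hairpins (5.72 and 5.70 CPM), and in T118 both libraries were at or under 3 counts, so no ratio is given. The T113 ratio rests on 1 library per hairpin, and the fit over the lines gave an adjusted p of 0.874 by edgeR.

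**Figure D3:**
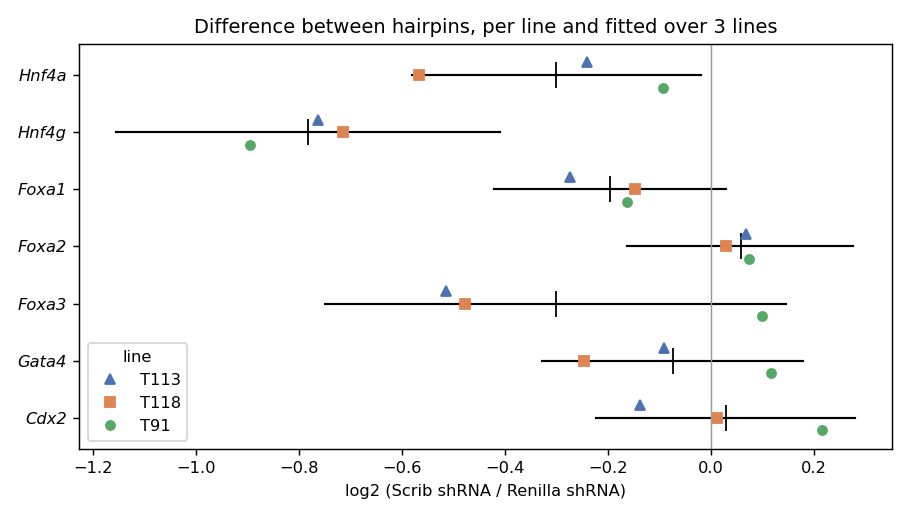
Log2 ratio of the Scrib hairpin over the Renilla hairpin (x axis) for 7 factors (y axis; Gata6 is left out because of its low counts). Symbols are the ratios in T113, T118 and T91 (1 pair of libraries each), the tick is the value fitted over the lines and the bar its 95% interval from edgeR. Hnf4g lies between -0.90 and -0.71 in all 3 lines, and the values of Foxa2 lie between 0.03 and 0.08.

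Other regulators of the same network were taken from a list of 25 factors, of which 15 passed the filter. Like the 8 factors, this list and the target and marker lists below were chosen with earlier results of these data known. Their shares are set beside those of all genes as descriptions only. None passed the hairpin test, 10 were below 0 and 5 above, and the median log2 fold change was -0.20 (all genes -0.01). The smallest p-values were those of Onecut2, a cut-homeobox factor of ductal and hepatobiliary cells (-0.81 ± 0.14, adjusted p = 0.501 by edgeR), Gata5 (-0.98 ± 0.29, adjusted p = 0.712 by edgeR) and the Wnt effector Tcf7l2 (-0.30 ± 0.10, adjusted p = 0.745 by edgeR). Between lines 7 of the 15 passed the F-test (46.7%, against 14% of all genes). Isx, an intestinal homeobox gene, stood at 19.9 and 27.3 CPM in T113 (Scrib, then Renilla hairpin), 104 and 125 CPM in T118 and 3.49 and 3.35 CPM in T91. Sox17, an endoderm factor, was at 19.6 and 19.7 CPM in T113, 27.8 and 37.9 CPM in T118 and 1.64 and 1.41 CPM in T91. Onecut2 ran the other way, with 34.5 and 52.7 CPM in T113, 7.83 and 18.2 CPM in T118 and 103 and 163 CPM in T91.

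Known HNF4 targets that differed between lines were mostly lowest in T91, where Hnf4a and Hnf4g were also lowest. A link between the HNF4 levels and these genes was not tested. Of 20 listed, 11 passed the filter and 7 of these passed the line F-test (14% of all genes did). Relative to T91, 6 were higher and 0 lower in T113, and 6 were higher and 1 lower in T118. Between T113 and T118, 1 was higher and 5 were lower in T113. Neither Hnf4a nor Hnf4g passed between T113 and T118 (adjusted p = 0.963 and 0.08 by edgeR). Cdhr2, a brush border protocadherin, stood at 33.7 and 45.0 CPM in T113, 133 and 283 CPM in T118 and 8.71 and 8.35 CPM in T91 (Scrib, then Renilla hairpin in each line). Apob, the apolipoprotein of chylomicrons and low-density lipoprotein, was at 5.11 and 4.42 CPM in T113, 11.6 and 21.5 CPM in T118 and 0.715 and 0.972 CPM in T91. Ttr, the thyroxine carrier transthyretin, was the exception lower in T118, with 9.15 and 12.9 CPM in T113, 0.146 and 0.341 CPM in T118 and 1.81 and 2.58 CPM in T91. All 11 were below 0 in the fit of the hairpins (median -0.34, all genes -0.01), as were 51.8% of all genes. Only in T118 did all 11 have the lower value with the Scrib hairpin. In T91 Lgals4 (525 against 502 CPM), Cdhr2 (8.71 against 8.35), Cdhr5 (22.4 against 20.5) and Vil1 (216 against 211) were higher with it. The others were lower there. In T113 most were lower, but Apob was higher (5.11 against 4.42 CPM). Of the 11, 4 had an unadjusted p under 0.05 (5.06% of all genes were lower at that p), and none passed the adjusted test. The smallest p-values there were those of Myo1a, a brush border myosin (-1.13 ± 0.33), Ttr (-0.60 ± 0.22) and Cdh17, the liver-intestine cadherin (-0.25 ± 0.10), with adjusted p-values of 0.712, 0.748 and 0.753 by edgeR.

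Known FOXA targets were highest in T113, the line with the highest Foxa1 and Foxa3. Of 11 listed, 6 passed the filter and 5 of these passed the line F-test (14% of all genes did). Relative to T91, 5 were higher in T113 and 2 were lower in T118, and 5 were higher in T113 than in T118. Agr2, a protein disulphide isomerase of mucus cells, stood at 296 and 525 CPM in T113 (Scrib, then Renilla hairpin), 39.8 and 121 CPM in T118 and 43.1 and 82.8 CPM in T91. Creb3l1, a secretory-pathway factor, had 32.0 and 53.2 CPM in T113, 0.439 and 3.38 CPM in T118 and 6.31 and 14 CPM in T91. All 6 were below 0 in the fit of the hairpins (51.8% of all genes were), with a median of -1.35 (all genes -0.01) and 4 at an unadjusted p under 0.05 (5.06% of all genes were lower at that p), and none passed the adjusted test. Agr2 was at -1.12 ± 0.16 (adjusted p = 0.394 by edgeR), Creb3l1 at -1.29 ± 0.35 (adjusted p = 0.693) and Spdef, a factor of goblet cells, at -1.41 ± 0.47 (adjusted p = 0.745). In each of the 3 lines these genes had the lower value with the Scrib hairpin, as 15.4% of all genes tested did. Among the FOXA factors this held for Foxa1, while Foxa2 had the higher value in each line and Foxa3 varied. A link between the FOXA levels and these genes, across lines or hairpins, was not tested.

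Known CDX2 targets were split by line, with all 6 of 12 that passed the filter past the line F-test (14% of all genes were). Relative to T91, 3 were higher in T118, while 2 were higher and 1 lower in T113. Krt20, an intestinal keratin, stood at 24 and 39.0 CPM in T113 (Scrib, then Renilla hairpin), 101 and 230 CPM in T118 and 112 and 107 CPM in T91. Cdh17 was at 538 and 684 CPM in T113, 810 and 1010 CPM in T118 and 404 and 427 CPM in T91. All 6 were below 0 in the fit of the hairpins (51.8% of all genes were; median -0.71, all genes -0.01), 3 at an unadjusted p under 0.05 (5.06% of all genes) and none past the adjusted test. Mep1a had the smallest p of them, at -0.93 ± 0.35 (adjusted p = 0.748 by edgeR). Only in T118 did all 6 have the lower value with the Scrib hairpin, with Alpi at 32.4 against 129 CPM. In T91 Krt20, Isx and Alpi (1.05 against 0.268 CPM) were higher with the Scrib hairpin, and the others lower. In T113 Alpi alone was higher with it (0.879 against 0.404 CPM). Of 12 GATA targets from several organs 4 passed the filter, 2 of them past the line F-test, namely Bmp4 and Slc10a2, and none past the hairpin test (3 above 0, 1 below, median 0.11). Of all genes, 14% passed the line F-test. Bmp4, a secreted signalling protein, stood at 3.58 and 4.20 CPM in T113, 14.3 and 13.1 CPM in T118 and 11 and 9.05 CPM in T91. Slc10a2 was instead lowest in T91, with 4.88 and 4.26 CPM in T113, 9.04 and 5.63 CPM in T118 and 2.23 and 2.55 CPM in T91. Ttr belongs to the HNF4, FOXA and hepatocyte lists, Cdh17 to the HNF4 and CDX2 lists, Muc2 to the FOXA and CDX2 lists, and Isx to the regulators and the CDX2 list.

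**Figure D4:**
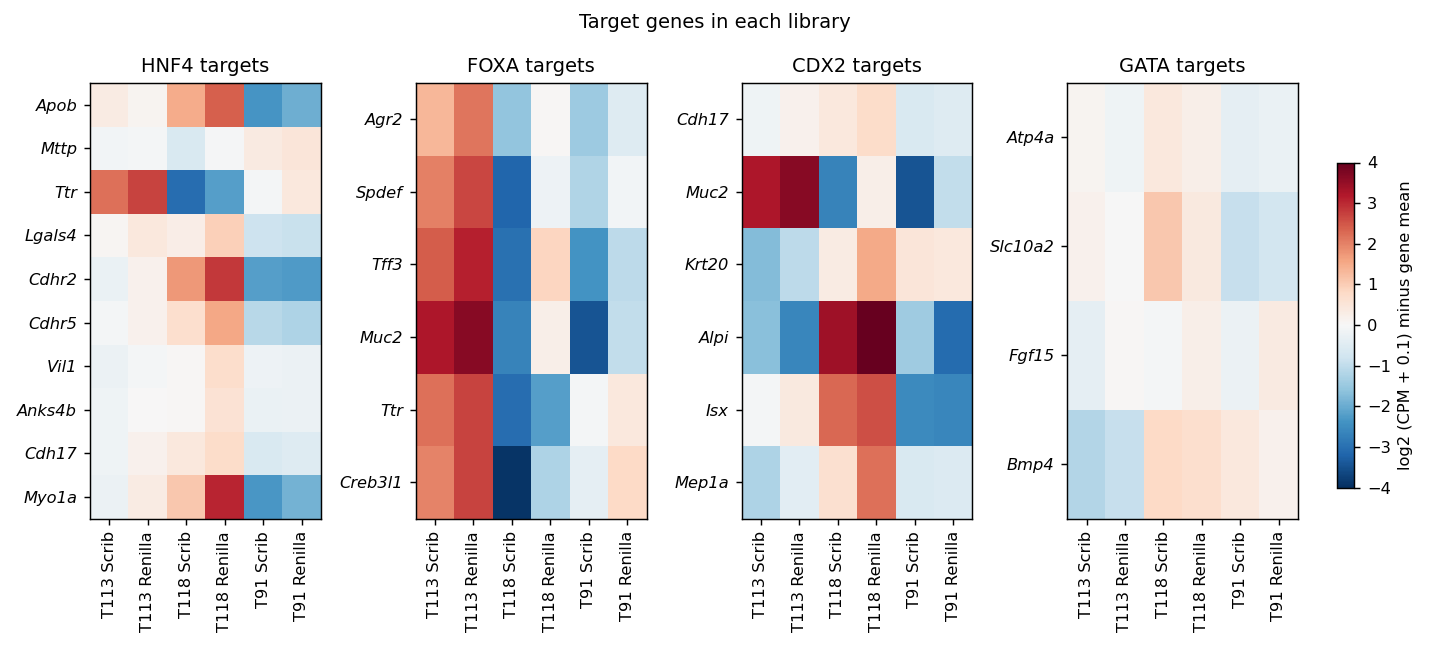
Target genes past the low-count filter, as log2 (CPM + 0.1) minus the mean of the gene over 6 libraries (colour, red above and blue below the mean), with libraries on the x axis (lines T113, T118, T91, Scrib left of Renilla). The FOXA targets are red in both T113 libraries, and Cdhr2, Apob and Isx are red in both T118 libraries and blue in both T91 libraries.

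Stomach and basal-like markers were read beside these factors. Of 14 stomach markers 6 passed the filter, 5 of them past the line F-test (14% of all genes). All 6 were below 0 in the fit of the hairpins (51.8% of all genes were), with a median of -0.88 (all genes -0.01). Of the 6, 5 had an unadjusted p under 0.05 (5.06% of all genes were lower at that p) and none passed the adjusted test. Relative to T91, 4 were higher and 1 lower in T113, and 3 were higher and 1 lower in T118. The 1 lower in both was Tff2, a trefoil peptide. Tff2 stood at 6.90 and 11.9 CPM in T113 (Scrib, then Renilla hairpin), 0 and 0.0683 CPM in T118 and 24.4 and 44.0 CPM in T91. Ctse was lowest in T91, with 30.5 and 41.2 CPM in T113, 21.6 and 62.2 CPM in T118 and 2.27 and 2.82 CPM in T91. Of 14 basal-like and mesenchymal markers 5 passed the filter, and 2 of these passed the line F-test, Fn1 and Hmga2. Fn1, the fibronectin gene, was at 15.8 and 17.2 CPM in T113, 3.59 and 3.41 CPM in T118 and 44.0 and 80.6 CPM in T91, and Hmga2, a chromatin protein of fetal tissue, at 61.8 and 67.6 CPM, 87.4 and 90 CPM, and 44.0 and 59.2 CPM. None of the 5 passed the hairpin test, with 4 below 0, 1 above and a median of -0.19. Of the epithelial markers, 2 of 9 passed the line F-test (Krt7 and Sox9) and none the hairpin test, with a median of -0.17. The fibroblast genes Col1a1 (1.60 ± 0.48) and Col1a2 (1.19 ± 0.46) were the 2 of their list past the filter, and their list summed to 1.44 to 7.66 CPM with the Scrib hairpin and 1.14 to 1.74 CPM with the Renilla hairpin. Both were at an unadjusted p under 0.05 and neither passed the adjusted test. The part of fibroblast RNA in the hairpin values above was not tested.

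The genes most like each factor across the 6 libraries were sought among 10100 protein-coding genes with an average log2 CPM of at least 2, by Pearson's r of log2 CPM. The points share 3 lines and 2 hairpins, and the closest of so many genes is close by construction, so r is given as a description. For Hnf4g the closest was Tnfrsf11a, the receptor RANK (r of 0.998), at 8.46 and 12.6 CPM in T113 (Scrib, then Renilla hairpin), 13.1 and 20.6 CPM in T118 and 2.86 and 5 CPM in T91. For Foxa1 it was Akap2 (0.996), with 17.6 and 29.1 CPM in T113, 1.61 and 1.77 CPM in T118 and 2.10 and 2.25 CPM in T91. For Foxa2 it was Khdrbs3, an RNA-binding protein gene (0.996), with 17.0 and 16.8 CPM in T113, 0.183 and 0.273 CPM in T118 and 22.2 and 20.8 CPM in T91. The closest gene was Jarid2 for Foxa3 (0.994), Pias3 for Gata4 (0.993), R3hcc1 for Gata6 (0.998), Phkb for Hnf4a (0.994) and Mpc1 for Cdx2 (0.995). Among the factors themselves r was 0.94 for Foxa1 with Foxa3, 0.89 for Hnf4a with Hnf4g, 0.89 for Gata4 with Cdx2, 0.46 for Foxa1 with Foxa2 and -0.94 for Gata6 with Cdx2.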

How the data were processed

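For each library the authors deposited 1 table of estimated counts by Ensembl gene. The submitters' processing notes name Salmon 1.4.0, DESeq 2 and the build GRCm38 (mm10). The sources used here do not give the annotation or the strand setting. Counts were rounded and analysed in R 4.3.3 with edgeR 4.0.16: filterByExpr (minimum count 10), TMM, robust quasi-likelihood fit with line and hairpin as terms over all 6 libraries, Benjamini-Hochberg adjustment over 14169 genes, two-sided threshold 0.05. The fit has 2 residual degrees of freedom, so p-values rest largely on spread shared across genes. Lines pair the libraries because both hairpins were put into the same line, and deviations from the hairpin means correlated within lines at 0.666 (T113), 0.662 (T118) and 0.621 (T91). No libraries were duplicates, with chi-square statistics per degree of freedom of 24.6 to 104. DESeq2 1.42.0 and limma 3.58.1 served as alternatives. Intervals and limits on counts cover counting error only. The factors, all gene lists and the promoter words were chosen with earlier results of these data known. All 8 factors are named, with up to 3 genes of each other list by smallest p per comparison and the 3 genes closest to each factor, of which the first is printed. Some list genes are named outside this rule, such as Alpi among the CDX2 targets and Lgals4, Cdhr5 and Vil1 among the HNF4 targets. Cblif was matched through its older symbol Gif. Values of 1 gene in these lists are not reported here.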

Additional observations from a re-analysis of the deposited data

Results flagged for a closer look

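For 3 factors the hairpin libraries differed in opposite directions in different lines, which was not tested because each line had 1 library per hairpin. The log2 ratio of the Scrib over the Renilla hairpin was -0.51 in T113, -0.48 in T118 and 0.10 in T91 for Foxa3, a spread of 0.61 between the highest and the lowest line. For Gata4 it was -0.09, -0.25 and 0.12 in the same lines (spread 0.36), and for Cdx2 -0.14, 0.01 and 0.22 (spread 0.35).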

How the results depend on the processing

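The count of factors past the hairpin test was 0 in edgeR's quasi-likelihood fit with the lines paired (2 at an unadjusted p under 0.05) and stayed 0 with no replicate block, DESeq2 size factors, no low-count filter, an average CPM of at least 5, DESeq2, limma-voom and without each line. Over all genes the hairpin count was 1 in the fit with lines, 1 with no replicate block, 64 with no filter, 63 by DESeq2, 8 by limma-voom, and 94, 9 and 25 without T91, T113 and T118. The count past the line test was 6, and 5 to 7 under the alternatives, with Hnf4g, Foxa1, Foxa2 and Foxa3 in each of them. Over all genes it was 1989, against 2966 with no filter, 1310 at an average CPM of at least 5 and 1274 to 4328 without 1 library. Of the fold changes, those small or of Gata6 turned sign when libraries were left out, and their ranges follow. Between hairpins, without 1 line, Gata4 ran from -0.168 to 0.009 and Cdx2 from -0.062 to 0.117. Gata6 was at -0.353 without T113 and 0.917 without T118, and had no value without T91. Between lines, without 1 library, Foxa1 in T118 against T91 ran from -0.068 to 0.003 (0.002 without the T91 Scrib library), and in T113 against T118 Hnf4a ran from -0.218 to 0.189 (0.036 without the T113 Renilla library), Gata6 from -1.011 to 6.636 and Cdx2 from -0.178 to 0.076. The cause was not tested. Of the line fold changes under alternatives, 242 kept their side of the threshold, 23 newly passed and 14 no longer passed. Low counts limit the fold changes of Gata6 that involve T113 or T118.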
